A study of Monopterus albus with 3 samples.

Results

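Loci of the swamp eel *Monopterus albus* whose coding exons are mostly phase-symmetric were examined in the gonad transcript models. An internal exon is phase-symmetric when its length is a multiple of 3, so that the introns on both sides interrupt the reading frame at the same codon position. For each Cufflinks gene identifier, here called a locus, the transcript with the most coding sequence (CDS) was taken. The locus was a member when that transcript had 8 or more coding exons, when 75% or more of the internal exons were a multiple of 3 long, and when fewer than 4 of these had the same length. This rule was met by 221 of 63334 loci, or 3.38% of the 6540 loci with 8 or more coding exons. The other 6319 loci of that size serve for comparison. They include 61 loci that met the 75% limit but had 4 or more internal exons of one length.

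RNA came from ovary (female), ovotestis (hermaphrodite) and testis (male), with 1 library per gonad. The models form a single annotation for these 3 libraries, and coverage is given per transcript but not by gonad, so gonads could not be compared and no replicate error exists. How the libraries were combined, their read numbers and the number and age of the fish behind each were not analysed here. Exons had been trimmed to the open reading frame (ORF), and the identifiers carry no gene names, so loci are given by position on the authors' scaffolds, 1-based.

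As background, an intron of phase 0 lies between codons, an intron of phase 1 after the first base of a codon and an intron of phase 2 after the second. An exon between introns of equal phase can be skipped, repeated or inserted elsewhere without shifting the frame. In vertebrates, repeated extracellular modules such as immunoglobulin, fibronectin type III and epidermal growth factor-like domains are often encoded by exons between phase 1 introns (1-1 exons). The triple helix of fibrillar collagens is encoded by short exons between phase 0 introns (0-0 exons), whose lengths are multiples of 9 bp because the protein repeats in Gly-X-Y triplets. No sequence of these scaffolds was used here, so no domain or protein was assigned to any locus.

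The rule named no phase. Symmetric exons keep neighbouring introns in one phase, however, and a common phase may meet the rule more easily. In the other loci 48.1% of all introns were in phase 0, 29.5% in phase 1 and 22.4% in phase 2. How far the rule alone shifts the phase classes was not tested. Among their 1726 symmetric internal exons, 1041 (60.3%, 95% interval 54.4% to 66.2%) were 0-0, 564 (32.7%, 26.8% to 38.6%) were 1-1 and 121 (7.01%, 4.45% to 9.57%) were 2-2. In the other loci, 61.9% of 33309 symmetric exons were 0-0, 25.05% (24.1% to 26.0%) were 1-1 and 13.1% (12.5% to 13.6%) were 2-2. The share of 1-1 exons was thus 7.63 percentage points higher in the members (1.71 to 13.5) and that of 2-2 exons lower by 6.08 points. The range from 1.71 to 13.5 is the interval of the members less the point share of the other loci, whose own spread it leaves out. The shares of 0-0 exons had overlapping intervals. The intervals come from the spread between loci, which are not replicates, and no test was made. The excess of 1-1 exons rested on the limit on equal lengths, because it was 0.956 points once the 61 loci with 4 or more equal lengths were counted as members. Formed in the same way, the interval of this excess reached below 0 with the most covered transcript of each locus (6.08 points, -0.119 to 12.3). It also did so at 90% or more symmetric exons (12.7 points, -3.29 to 28.7). Of the 61 loci, 38 had mostly phase 0 introns.

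**Figure D1:**
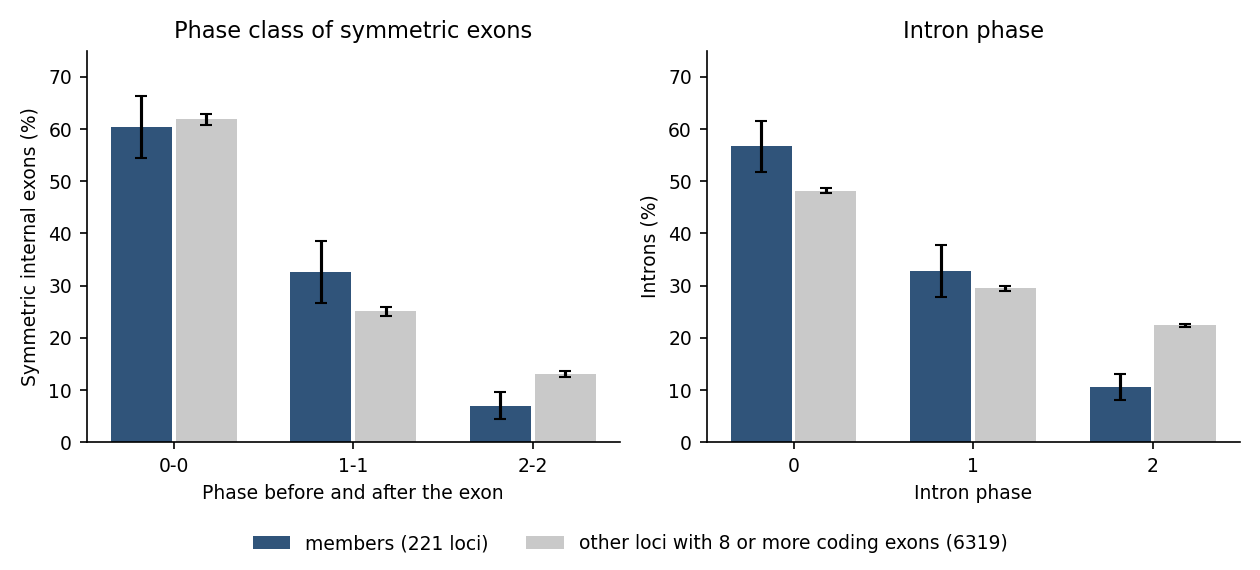
Left, share (%) of symmetric internal exons with phase 0, 1 or 2 introns on both sides. Right, share (%) of all introns in each phase, for 221 members (dark) and 6319 other loci (grey). Bars are shares over all exons or introns, and lines are 95% intervals from the spread between loci. The 2-2 class is at 7.01% in members and 13.1% in other loci.

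At the level of loci, 102 members (46.2%, Wilson 95% interval 39.7% to 52.7%) had 75% or more of their introns in phase 0, 49 (22.2%, 17.2% to 28.1%) in phase 1 and 10 (4.52%, 2.48% to 8.13%) in phase 2. The other 60 (27.1%), called mixed, reached 75% of their introns in no phase. Only loci with such a dominant phase can be set side by side, since 92.7% of the other loci had none. Phase 0 then made up 63.4% of 161 members (55.7% to 70.4%) and 75.5% of 462 other loci (71.4% to 79.2%), without overlap of the intervals. The sets were cut differently, however, since 407 of the 462 other loci had failed the limit on symmetric exons. What this does to the shares was not tested. Phase 1 made up 30.4% of members (23.9% to 37.9%) and 21.2% of other loci (17.7% to 25.2%), and phase 2 made up 6.21% (3.41% to 11.1%) and 3.25% (1.98% to 5.29%). The last share was 1.72% (0.836% to 3.51%) without the 61 loci left out for equal lengths, which held 8 of the 15 other loci of phase 2. With or without these loci, the intervals overlapped for phases 1 and 2. The lower share of 2-2 exons in members was thus not seen as a lower share of loci dominated by phase 2.

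The rule does not use the first intron as such. The first intron was in phase 0 at 108 members (48.9%), in phase 1 at 74 (33.5%) and in phase 2 at 39 (17.6%), against 44.6%, 33.99% and 21.4% of the other loci, and the intervals of both sets overlapped for each phase. Of the 161 members with a dominant phase, 131 (81.4%) had it in the first intron, as did 372 of 462 other loci (80.5%). A dominant phase takes 75% or more of the introns, the first included. Such high shares follow largely from that definition, and nothing is read from them. In 40 members every internal exon was a multiple of 3, which by itself puts all introns in the same phase. This was phase 0 in 25 of them, phase 1 in 12 and phase 2 in 3. Another 75 members had exactly 1 internal exon that was not a multiple of 3.

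The longest unbroken run of introns in one phase was 27 introns of phase 1, at a locus of 28 coding exons on scaffold 45 (1396876 to 1450836, minus strand). None of its introns was in another phase, its 26 internal exons had a median of 58.5 bp (27 to 156 bp), and 14 of the 26 were multiples of 9 bp. The next phase 1 runs were 14 introns on scaffold 287 (264282 to 284224, plus strand), where the internal exons had a median of 130.5 bp, and 13 introns on scaffold 198 (587939 to 599847, plus strand). The scaffold 198 locus had the longest CDS of all members, 9174 bp in 14 exons. Its internal exons read 282, 594, 288, 300, 303, 303, 585, 303, 300, 576, 306 and 606 bp, so that 8 were close to 300 bp and 4 were between 576 and 606 bp.

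Runs of phase 0 introns reached 23 at the 39-exon locus on scaffold 109 (43409 to 66690, minus strand), 22 at the 29-exon locus on scaffold 128 (2231176 to 2256968, minus strand) and 21 at a 22-exon locus on scaffold 42 (101302 to 112443, plus strand). On scaffold 109 the internal exons were short, with a median of 72 bp, and 17 of the 30 that were divisible by 3 were also multiples of 9 bp. Its first coding exon measured only 3 bp. On scaffold 128 the median was 150 bp and 5 of 22 were multiples of 9 bp, so runs of similar length were built of exons of different size. On scaffold 42 all 20 internal exons were multiples of 3, with a median of 99 bp. Long runs of phase 0 also covered all 13 exons of a locus on scaffold 2 (8242959 to 8256147) and all 12 exons of a locus on scaffold 41 (2262934 to 2268837).

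Runs of phase 2 introns were shorter. The longest was 8 introns, at a 9-exon locus on scaffold 124 (31488 to 63671, minus strand) with 7 internal exons between 36 and 108 bp. A 13-exon locus on scaffold 488 (87840 to 105316, minus strand) had 11 of 12 introns in phase 2, in runs of 7 and 4 around a single phase 0 intron in front of an exon of 1949 bp. Another run, of 7 introns, belonged to an 8-exon locus on scaffold 8 (286577 to 289615, minus strand), whose phase is uncertain for a reason given further on.

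**Figure D2:**
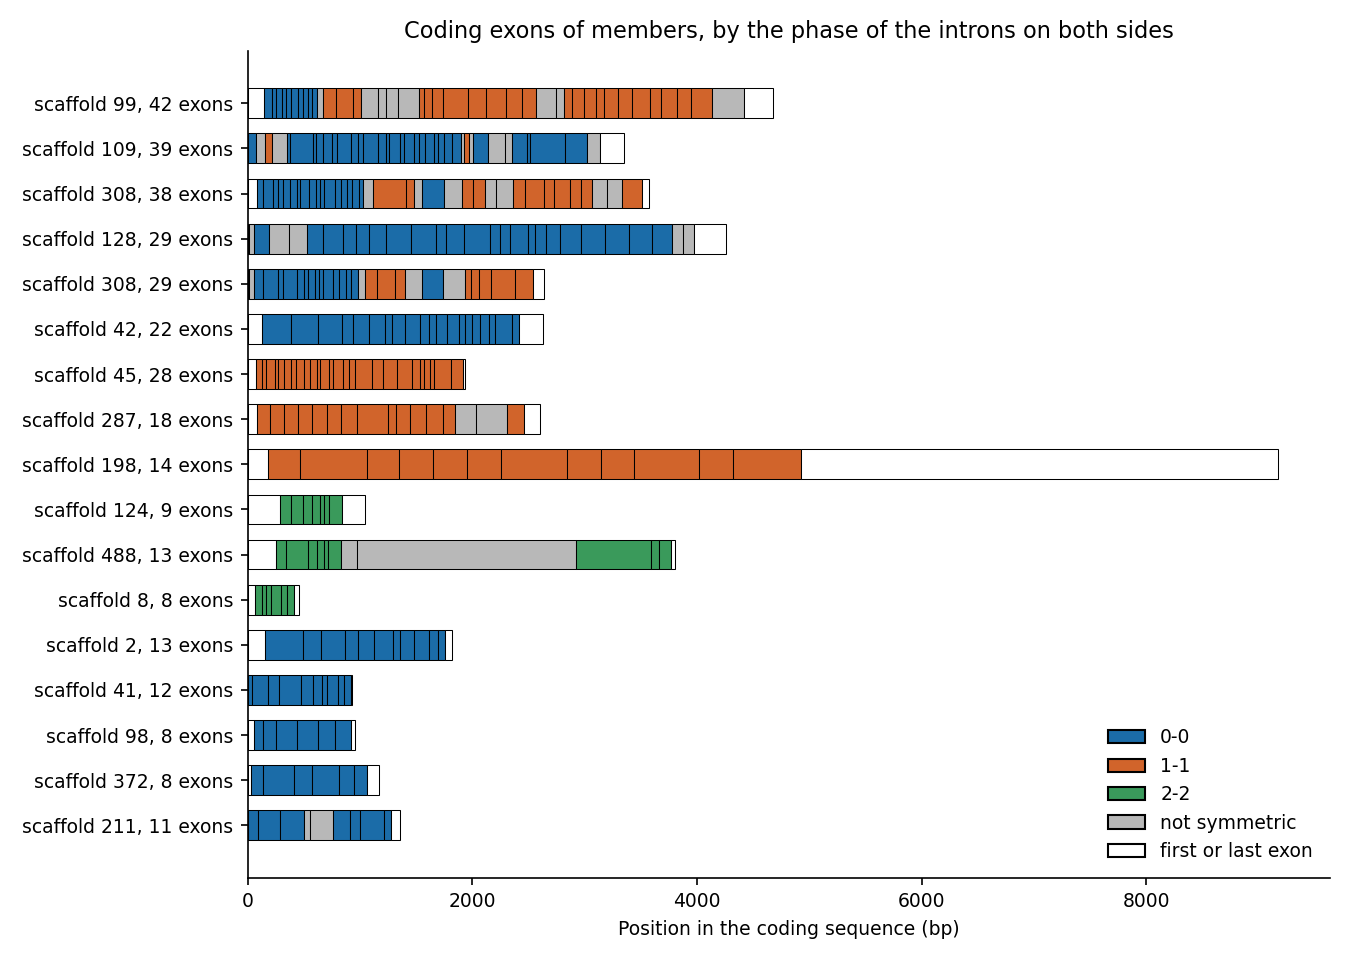
Coding exons of 17 members in order along the CDS (x axis, bp), coloured by the phase of the introns on both sides, with exons that are not symmetric in grey and first and last exons in white. The loci have the most exons, the longest runs in each phase, every internal exon divisible by 3, or the highest coverage. On scaffold 45 all 26 internal exons are 1-1, and on scaffold 99 a block of short 0-0 exons precedes blocks of 1-1 exons.

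The locus with the most coding exons, 42 on scaffold 99 (3443049 to 3462639, minus strand), was not of one phase. It began with 11 introns of phase 0 around exons of 36 to 69 bp and went on with blocks of 9 and 12 introns of phase 1. The loci on scaffold 308 from 308013 to 342509 (38 exons, minus strand) and from 344535 to 422908 (29 exons, plus strand) had the same order, with 18 and 15 introns of phase 0 followed by blocks of 7 and 6 introns of phase 1. The phase of the 29-exon locus is uncertain for the same reason as that of the locus on scaffold 8. Blocks of at least 5 introns in each of 2 phases were found at 8 members (3.62%), and at 4 of them a phase 0 block came before a phase 1 block. Such blocks were found at 31 of the other loci (0.491%), and at 15 of these a phase 0 block came before a phase 1 block. The order was thus not particular to members. Blocks of this kind need many symmetric exons, for which the members were chosen, so nothing is read from the difference in frequency. The reverse order, phase 1 before phase 0, was seen at loci on scaffolds 65 (1553098 to 1562994) and 89 (541550 to 546739) and on scaffold 232 (493244 to 506472), where 9 introns of phase 1 were followed by 6 of phase 0. On scaffold 127 (1861841 to 1917747) a block of 5 phase 2 introns lay between blocks of 7 and 6 phase 0 introns. These blocks were chosen for description after their values were seen.

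Internal exons that broke the symmetry, 333 of 2059 in the members, were distributed along the whole locus, with 14.96% of the exons in the 5' part, 14.3% in the middle and 19.7% in the 3' part of equal exon number. Of the 333, 114 stood in adjacent pairs whose lengths added up to a multiple of 3, so the frame returned to its phase after the pair. This share, 34.2%, was below the 53.1% of the other loci, whose asymmetric exons are more numerous.

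Just inside the 75% limit lay loci on scaffolds 13 (4410484 to 4420513), 58 (965349 to 1102627) and 35 (481613 to 488139), at exactly 75% of 24, 16 and 12 internal exons. Just outside lay loci on scaffold 34 with 74.2% of 31 internal exons, 5 of them of one length and so past that limit too, on scaffold 69 with 73.9% of 23 and on scaffold 94 with 73.3% of 15. The first of these had 27 of 32 introns in phase 1. The share of loci that were members was 4.75% at 8 or 9 coding exons, 6.09% at 10 to 12, 2.10% at 13 to 17 and 0.749% at 18 or more. A fixed share of symmetric exons tends to be harder to reach with more exons. At 8 or 9 coding exons, however, the lowest share that could pass was 83.3% or 85.7%, because the limit falls between whole exons. The limit on equal lengths also removed long loci, since the 61 loci left out by it had a median of 22 coding exons. The course of these shares, and the exon number of members, are thus partly set by both limits of the rule. Members had a median of 10 coding exons against 13 in the other loci.

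Symmetric exons of the members had a median length of 120 bp (95% interval 117 to 126 bp), against 123 bp (120 to 123 bp) in the other loci. The intervals of exon length count every exon as independent, although exons of one locus are not, so they may be too narrow. The median over loci of the median per locus was 123 bp (118.5 to 129 bp) in members. The 1-1 exons had the highest median, 135 bp (129 to 144 bp), while the 0-0 exons had 114 bp (111 to 117 bp) and the 2-2 exons 108 bp (96 to 132 bp). The intervals of 1-1 and 2-2 exons overlapped. In the other loci the medians were 132, 117 and 117 bp. The most common lengths among members were 54 bp and 75 bp in the 0-0 class, with 30 exons each at 21 and 26 loci, and 126 bp in the 1-1 class, with 27 exons at 19 loci. Exons of 63 bp or shorter made up 14.3% of the symmetric exons of members and 10.2% of those of the other loci. These are shares over all exons, in which loci with many exons weigh more. The 28-exon locus on scaffold 45 alone held 15 of the 247 such exons of members. How far the difference rests on such loci was not tested. Multiples of 9 bp made up 35.2% of 0-0 exons, 39.0% of 1-1 exons and 33.1% of 2-2 exons in members, against 35.96%, 33.1% and 34.3% in the other loci.

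Exons of 252 to 306 bp, a range chosen after the lengths were seen, were a larger share of the 1-1 class in members. They made up 55 of 564 1-1 exons (9.75%) at 17 members, and 8.51% without the scaffold 198 locus, which held 8 of them. In the other loci the share was 4.64% of 1-1 exons. In the 0-0 class it was 1.63% in members and 1.73% in the other loci.

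**Figure D3:**
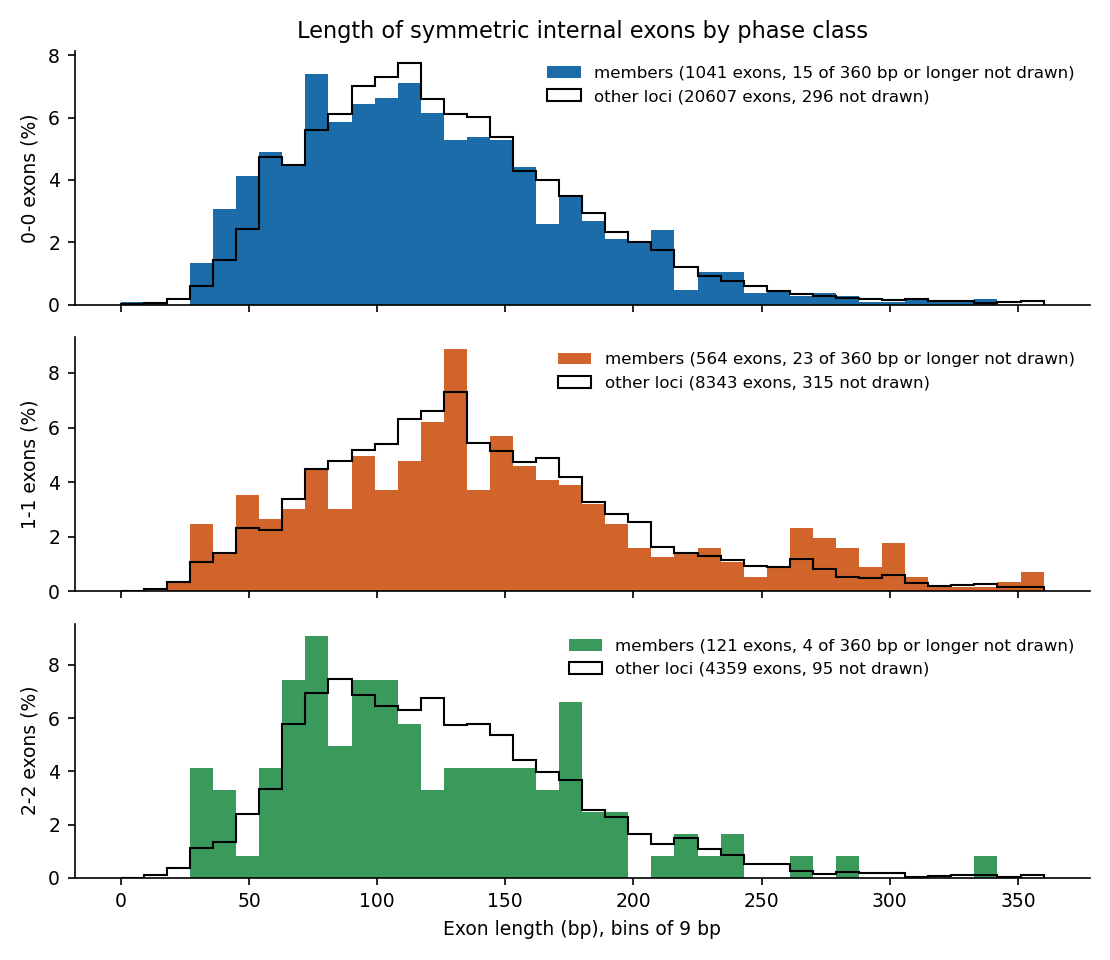
Length of symmetric internal exons (x axis, bp, in bins of 9 bp) as a share (%) of the exons of each phase class, for members (filled) and other loci (black outline). Exons of 360 bp or longer are counted in the legends and not drawn. The 1-1 exons of members stand above the outline between about 252 and 306 bp.

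Several transcripts were assembled at 127 members (57.5%, Wilson 95% interval 50.9% to 63.8%), against 59.8% (58.6% to 61.0%) of the other loci, and the intervals overlapped. Members had 1.86 transcripts on average and at most 5. Not all of these are isoforms of the chosen transcript, since some have an ORF that lies outside its coding span. Examples are ORFs of 21 bp at the 38-exon locus on scaffold 308, 27 bp on scaffold 42 and 99 bp on scaffold 488. How many of the 127 members have only such further transcripts was not counted. The transcripts of 11 members had identical coding exons and thus differed, if at all, outside the ORF. The member with 5 transcripts, on scaffold 192 (985860 to 990291, plus strand), held 4 with the same CDS of 1467 bp in 8 exons. Of 109 further transcripts of members with 8 or more coding exons, 87 also had 75% or more of their internal exons divisible by 3. In the other loci 85 of 3399 did. Of the 698 symmetric exons of members that another transcript spanned, 610 were kept unchanged. The 87 thus follow largely from the choice of the locus, and nothing is read from them.

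An exon counted as skipped when another transcript's coding span reached past it on both sides and no exon of that transcript overlapped it. Its neighbouring exons need not have been kept. Exon skipping in this sense was seen at 30 of the 127 members with several transcripts (23.6%, Wilson 95% interval 17.1% to 31.7%) and at 553 of 3778 other loci (14.6%, 13.5% to 15.8%). The rule selects for symmetric exons, which were 83.5% of the spanned internal exons in members and 40.3% in the other loci. Their skipped share was the higher one in both sets, so the rule may raise the share of members with a skip. How far it does was not tested. Of the symmetric exons that another transcript spanned, 6.73% were skipped in members (3.48% to 9.99%, from the spread between loci) and 3.48% in the other loci. Of the exons not divisible by 3, 2.90% were skipped in members (0.214% to 5.58%, 4 exons) and 1.32% in the other loci, so a higher share was not shown to be particular to symmetric exons. The difference for symmetric exons depended on few loci, because 22 of the 51 skipped exons came from the loci on scaffolds 128, 232 and 308 (344535 to 422908), and without these 3 the share was 4.03%. On scaffold 232 the transcript without exons 2 to 9 began upstream, at 485550 and not at 493244, so these need not be skips between kept exons. On scaffold 128 a transcript left out exons 13 to 19 in a row, and its 19 coding exons still gave an ORF of 2631 bp.

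Skipping of a single exon with both neighbouring exons kept was found once at each of 21 members. These were 16.5% of the 127 members with several transcripts (Wilson 95% interval 11.1% to 24.0%). It was found at 381 of 3778 such other loci (10.1%, 9.16% to 11.1%), and the intervals just overlapped. The rule may raise this share too. All 21 exons were multiples of 3 (84.5% to 100%), whereas 83.5% of the 836 internal exons of members that another transcript spanned were. In the other loci 360 of 410 such exons (87.8%) were multiples of 3, against 40.3% of the spanned exons. The 21 exons measured 6 to 276 bp, with a median of 87 bp. The shortest, of 6 bp, was exon 5 of a 9-exon locus on scaffold 82 (408000 to 415923), and exons of 33 bp were skipped on scaffolds 375, 38 and 64. Of the 21, 12 were 1-1 (57.1%, Wilson 95% interval 36.5% to 75.5%), 8 were 0-0 and 1 was 2-2, while 35.2% of the symmetric exons within reach were 1-1. On scaffold 45 the skipped exon was number 20, of 126 bp, inside the run of 27 phase 1 introns. On scaffold 25 (1230057 to 1253129), one of the loci with 4 transcripts, it was exon 5 of 147 bp. The ORF had been chosen for each transcript separately, so a skip that breaks the frame could shorten the ORF and remove the exons that would show it. This applies to both ways of counting skips, and how often it happened was not tested.

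The read coverage of a locus, added up over its transcripts, had a median of 142 in members (95% interval 78.8 to 197) and 213 (205 to 219) in the other loci. The spread was wider in members, whose quartiles were 24.6 and 459, against 71.9 and 420.0. More members than other loci lay at each end, with 10.9% against 4.61% under 10 and 8.14% against 4.87% at 1000 or more. The lower median was seen at every exon number, with 115 against 201 at 8 or 9 exons, 167 against 225 at 10 to 12, 146 against 220.0 at 13 to 17 and 56.0 against 205 at 18 or more, the last with 13 members. The sums take in every transcript of a locus, also those with a short ORF outside the chosen one. On scaffold 488 (87840 to 105316), 977 of a summed coverage of 1424 came from an ORF of 99 bp. Coverage is given once per transcript for the whole series, and how the 3 gonads entered it was not analysed. Fewer cells of a type or less RNA per cell cannot be told apart.

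Median coverage also differed by dominant phase. Members with mostly phase 1 introns had a median of 47.2 (29.6 to 82.3), those with mostly phase 0 introns 139.7 (63.2 to 251.6) and those of mixed phase 259. The same order was seen in the other loci, at 60.2 (33.9 to 92.1), 177 (147 to 225) and 216. The intervals of phase 1 and phase 0 overlapped in members but not in the other loci, and mixed phase is given without an interval. The 10 members with mostly phase 2 introns had 95.9 (12.2 to 1269), and 15 other loci with mostly phase 2 introns had 53.2 (10.7 to 112). The order did not hold in the 61 loci left out for equal lengths, which count among the other loci. There the medians were 33.7 (19.6 to 56.0) for 38 loci of phase 0, 43.6 (6.96 to 128) for 9 of phase 1 and 31.9 (6.54 to 165) for 8 of phase 2, so low coverage was not particular to phase 1. By share of symmetric exons, the 75 members under 80% had a median of 202 (137.9 to 279.6). The 102 members from 80% to under 90% had 83.9 (56.4 to 218), and the 40 with every internal exon divisible by 3 had 46.8 (24.6 to 155). The medians of these classes fell as symmetry rose, but their intervals overlapped. Members of 8 or 9 coding exons cannot fall under 80%, so the classes also differ in exon number, which was not adjusted for. The class from 90% to under 100% had 119 (9.38 to 601) and, with 4 members, is too small to place.

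**Figure D4:**
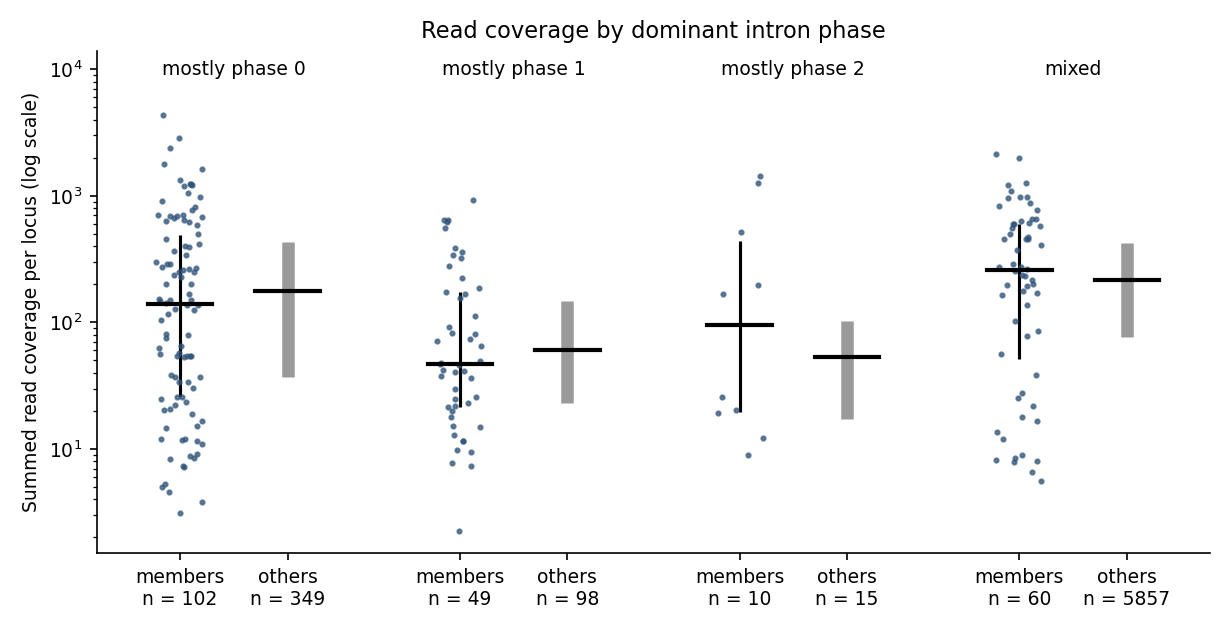
Summed read coverage per locus (y axis, log scale) by dominant intron phase. Points are members, horizontal bars are medians and vertical bars reach from the lower to the upper quartile, in black for members and grey for the other loci. Mostly phase 1 loci have the medians 47.2 in members and 60.2 in other loci, below those of mostly phase 0 loci, 139.7 and 177.

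The 3 most covered members had all or nearly all introns in phase 0. The highest summed coverage, 4335, was found on scaffold 98 (1413321 to 1420405, plus strand), an 8-exon locus with all 7 introns in phase 0. Its 8-exon transcript had a coverage of 1129, and 2855 came from a transcript with an ORF of 120 bp. An 8-exon locus on scaffold 372 (103391 to 106872, plus strand) had 2876 and an 11-exon locus on scaffold 211 (710349 to 715447, minus strand) had 2395. The least covered were a 10-exon locus on scaffold 129 (185052 to 188262, minus strand) with 2.26 and all 9 introns in phase 1, an 8-exon locus on scaffold 32 (1883355 to 1888229) with 3.09, and a 10-exon locus on scaffold 448 (67785 to 89233) with 3.83. All 3 had a single transcript, and 6 of the 24 members under 10 had several.

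Runs of exons with the same lengths in the same order linked some members to each other. A run of at least 5 such internal exons was shared by 9 pairs of members, made up of 18 loci, and no pair had both its loci on one scaffold. With any locus as partner, 37 members (16.7%, Wilson 95% interval 12.4% to 22.2%) shared such a run, against 24.3% (23.2% to 25.3%) of the other loci, which have more exons. The longest runs had 8 exons. On scaffolds 404 (71174 to 73863) and 60 (261934 to 266172), exons of 54, 54, 72, 36, 45, 33, 147 and 55 bp followed each other in both loci. On scaffolds 375 (147048 to 151017) and 202 (413750 to 416144), the shared exons measured 60, 96, 90, 66, 62, 93, 65 and 69 bp, the first exons 29 bp each and the last exons 117 and 114 bp. The coverage of this pair was 576 and 13.5. On scaffolds 129 (1205635 to 1210920) and 250 (866287 to 873200), 7 exons were shared in loci of 9 exons each, with coverages of 172 and 885. In 8 of the 9 pairs the phases were the same throughout the run, and in the same 8 pairs 0 of the introns compared had equal lengths. Equal exon lengths carry the phase of the first intron through the run, so the later introns add no further match of phase.

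The ninth pair showed a limit of the phase assignment. Exons 2 to 7 of the 8-exon locus on scaffold 8 had the lengths of exons 9 to 14 of the 29-exon locus on scaffold 308 (63, 36, 42, 87, 54 and 63 bp), and all 7 introns compared also had equal lengths, from 122 to 790 bp. A stretch of equal structure was thus read with all introns in phase 2 on scaffold 8, where the ORF was 456 bp long, and in phase 0 on scaffold 308. The phase of a locus therefore depends on where the ORF was placed, and which frame is used was not tested.

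**Figure D5:**
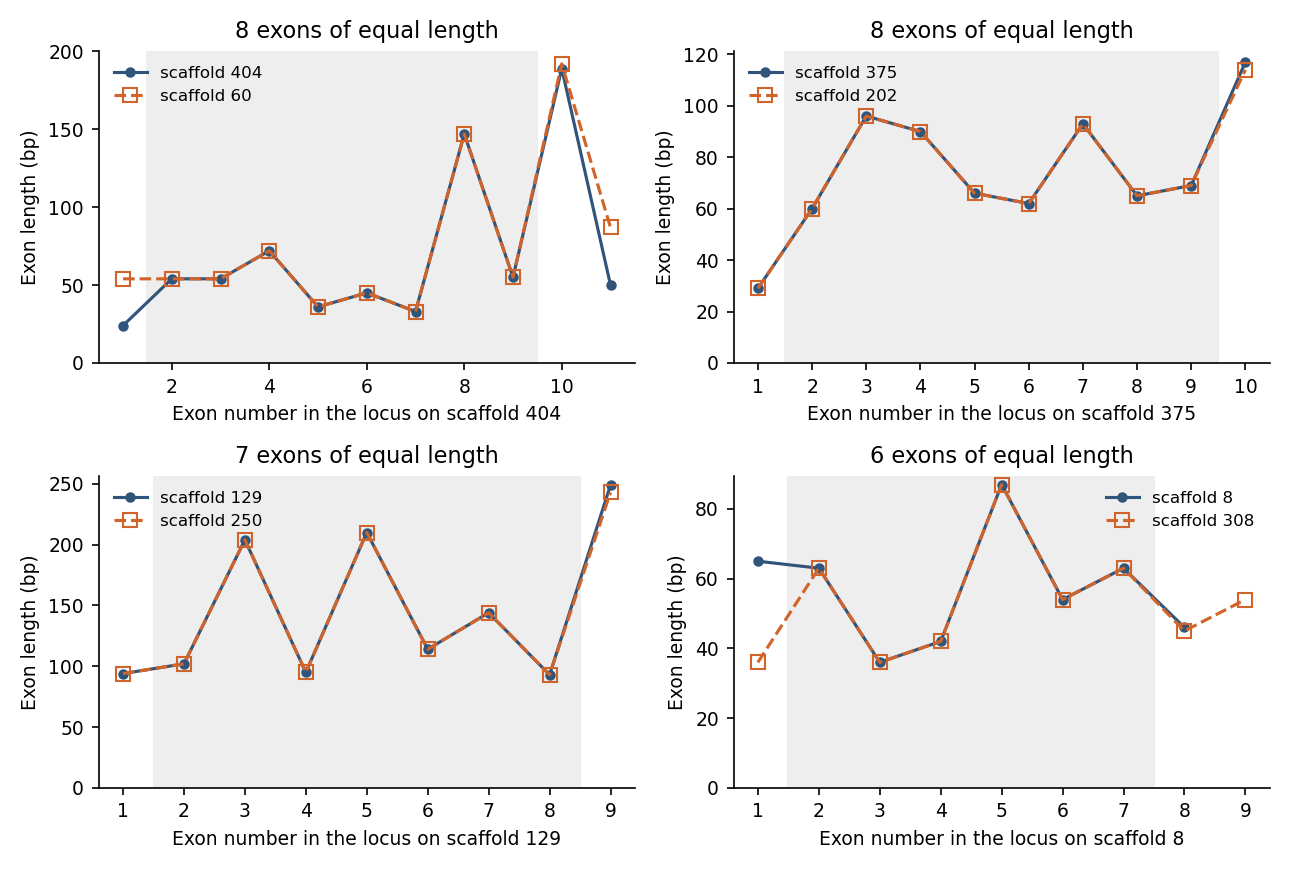
Exon lengths (y axis, bp) by exon number (x axis) in 4 pairs of members, with the run of equal lengths shaded. Filled circles and open squares are the loci of a pair. Runs of 8, 8, 7 and 6 exons coincide, and the last pair, on scaffolds 8 and 308, also has equal introns.

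Equal lengths of 3 exons and the 4 introns around them at another locus were found for 5 members (2.26%) and 15 other loci (0.237%). Beside the pair on scaffolds 8 and 308 and a locus on scaffold 4 (465953 to 470934), they included the well covered locus on scaffold 372 (plus strand) and its neighbour on the minus strand, with coverages of 2876 and 1774. Both began with exons of 27 and 111 bp, had 276 and 279 bp in exon 3, and then shared exons of 159, 237 and 141 bp with introns of 76, 88, 687 and 74 bp. The minus strand locus had the longest span of all members, 397912 bp (106606 to 504517), of which a single last intron took 394697 bp (99.2%). That intron led to a last exon of 39 bp (106606 to 106644) inside exon 7 of the plus strand locus. Its next longest intron measured 1021 bp. The first introns differed (843 and 213 bp) and sequences were not compared, so how alike the loci are was not tested. If they share reads, these may have been divided between them, and their coverage is uncertain.

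The members lay on 142 scaffolds, 88 of which held 1 member and none more than 5. Members closer than 20 kb to each other formed 9 neighbouring pairs. The pair on scaffold 372 counts among these only through the 39 bp last exon behind an intron of 394697 bp. How often other loci have such neighbours was not counted. The 38-exon and 29-exon loci on scaffold 308 were transcribed away from each other, with 2025 bp between their first coding bases, and another member of 19 exons (424705 to 431810, plus strand) followed 1796 bp behind it. Exons 4 to 9 of this 19-exon locus had the lengths of exons 28 to 33 of the 42-exon locus on scaffold 99, namely 182, 64, 75, 108, 108 and 72 bp. The 29-exon and 19-exon loci had coverages of 56.0 and 41.7.

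Introns of the members were as long as those of the other loci, with a median of 349.5 bp against 347 bp. The medians were 350 bp for phase 0, 351 bp for phase 1 and 338 bp for phase 2 in members. Beside the scaffold 372 locus, the longest spans belonged to an 18-exon locus on scaffold 58 with 137279 bp, of which 1 intron took 66823 bp, and to an 8-exon locus on scaffold 330 (19847 to 134802) with 114956 bp, of which its first intron took 69616 bp. The CDS of members had a median of 1434 bp (1344 to 1572 bp), against 1812 bp in the other loci.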

How the data were processed

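Poly(A) RNA from 3 gonads was sequenced by the authors as 1 library each. Spliced alignment and transcript assembly rest on TopHat 1.3.3 (with Bowtie 0.12.7) and Cufflinks 1.1.0, as listed in the submitters' notes. The study's methods name a later Cufflinks version, and a hidden Markov model to place ORFs. The deposited file holds exon rows trimmed to the ORF, with 1 FPKM and 1 read coverage signal per transcript, and a score that was not used. It has 0 columns for single libraries.

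Phase was counted from the first base of the ORF, and equalled the deposited reading frame in all 2501 exon rows of members (0 differences). Shares of loci have Wilson 95% intervals, medians have intervals from order statistics, and shares of exons have intervals from the spread between loci, all without a test. Median exon lengths were taken over all exons as if independent, except where given per locus. Python 3.11.15, numpy 2.4.6, scipy 1.17.1 and matplotlib 3.10.9 were used, and the functions were tested on simulated gene models. Loci described singly had the most exons, transcripts or span, the longest runs per phase, complete symmetry, extreme coverage, the longest shared runs or values nearest the limit. Phase blocks, the range of 252 to 306 bp, coverage by symmetry, single skipped exons and repeated stretches were added later. The members and rules were chosen with earlier results of these data known. Gene names and sequences were not analysed here.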

Additional observations from a re-analysis of the deposited data

How the results depend on the processing

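In all, 83 values were recomputed under other settings, and 67 of them stayed within the 95% interval of the reported value or, for counts, within 1.5 times of it. These include settings that could not change the members. Leaving out loci with gaps under 50 bp, or with a coding length that is not a multiple of 3, kept the same 221 members. The member count was 44 at 90% or more symmetric exons, 364 at 67% or more, 58 at 12 or more coding exons and 493 at 6 or more, compared with the count given above. At 90% or more, phase 0 dominated in 59.1% of members and phase 1 in 31.8%, 50% had several transcripts, and the median coverage was 0.221 times that of the other loci, against 0.668. With 90% or more of the introns required in one phase, phase 0 dominated in 17.6% and phase 1 in 11.8%. At 12 or more coding exons the median symmetric exon was 114 bp and 4.29% of symmetric exons were 2-2. Without a limit on equal lengths, 26.3% were 1-1, 0.956 percentage points more than in the other loci, and the median was 105 bp. A minimum run of 8 shared exons left 7 members with a partner, against 37. Leaving out the 5 repeated members, chosen after seeing the data, gave 6.85% of 2-2 exons.

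No paired analysis was possible because each gonad has 1 library and the models carry no value per library. Coverage stands in for depth, and exons missed at low coverage cannot be told apart from exons that are absent.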
